A study of Mus musculus with 6 samples.

Results

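The MHC class I antigen presentation genes described here are H2-K1, H2-D1, B2m, Tap1, Tap2, Tapbp, Psmb8, Psmb9, Nlrc5 and Erap1. They were taken by symbol from a table of read counts for 53819 genes, and all 10 had a row and passed the filter on low counts that left 15232 genes for testing. The table holds 6 mouse leukaemia libraries, 3 labelled SLC6A6 KO (KO1, KO2 and KO3) and 3 labelled SLC6A6 WT (WT1, WT2 and WT3). In both groups the cells were leukaemia cells sorted from the spleen of mice transplanted with primary leukaemia carrying BCR-ABL and NUP98-HOXA9, a pair of fusion genes used to model blast crisis of chronic myeloid leukaemia (bcCML). The gene Slc6a6 codes for a transporter of taurine, and KO was compared with WT to ask how the leukaemia's transcriptome differs when it is targeted. The series title speaks of a knock-down, while the sample labels say KO. The sources used here do not give the knockout allele, the mouse strain, the age of the animals, the sorting marker or whether each library is from its own mouse. P-values therefore reflect the spread among these 6 libraries alone, which may be technical.

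MHC class I molecules show fragments of a cell's own proteins on its surface, where CD8 T cells read them and NK cells sense their loss. The proteasome cuts the fragments, the TAP transporter moves them into the endoplasmic reticulum, Erap1 trims them, and tapasin helps to load them onto a heavy chain paired with beta-2 microglobulin. Nearly all blood cells carry the pathway, interferon raises it, and the coactivator NLRC5 binds its promoters as part of a complex with RFX and other factors.

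The promoters show what the members share outside the counts. A RefSeq promoter entry (build GRCm38.p6) was matched for 8 of the 10 members, and the 250 bases before the start were searched on both strands. The X2 site core TGACG, bound by CREB and ATF proteins, was found in 5 of these 8 and in 17.7% of all 32817 promoters. The Y box ATTGG, bound by NF-Y, was found in 6 of 8 and in 33.8% of all promoters. For both motifs the Tap1 and Psmb9 matches are the same bases, between their starts, counted for each gene. TGACG followed by ATTGG after 10 to 30 bases, the order of the module that NLRC5 complexes use, was found in H2-K1, H2-D1 and B2m, each time with 20 bases between them, and in 0.64% of all promoters. The 3 stretches that hold this pair are shown because they belong to the heavy chains and their light chain. Capitals mark matches to any of the motifs searched.
H2-K1, chr17:34000348-34000467, minus strand: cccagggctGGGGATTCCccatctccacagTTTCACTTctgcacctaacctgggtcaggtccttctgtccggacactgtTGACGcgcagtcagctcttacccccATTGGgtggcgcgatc
H2-D1, chr17:35262914-35263033, plus strand: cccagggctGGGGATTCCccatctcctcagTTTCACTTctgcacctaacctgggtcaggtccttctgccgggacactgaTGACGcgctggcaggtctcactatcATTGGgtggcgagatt
B2m, chr2:122147537-122147656, plus strand: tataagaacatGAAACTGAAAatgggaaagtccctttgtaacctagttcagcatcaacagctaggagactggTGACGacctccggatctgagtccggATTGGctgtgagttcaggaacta

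From the NF-kappaB motif GGGNNTTCC onward, the H2-K1 and H2-D1 stretches were identical at 98 of 111 bases. That motif was found in these 2 members and in 4.97% of all promoters. The octamer TTTCACTT, part of the interferon-stimulated response element of class I promoters and searched only after the sequences had been seen, was found in the same 2 members and in 1.36% of all promoters. The general interferon response core, GAAA repeated after 2 bases, was found in B2m and in 2.97% of all promoters. A match is a description of the sequence and says nothing of whether a factor was bound in these cells.

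Tap1 and Psmb9 are transcribed in opposite directions from RefSeq starts 226 bases apart, and the sequence between those starts is upstream of both. In the GENCODE M21 models exons of the 2 genes overlap, so the annotations differ on where transcription starts. It is shown because these 2 members share it, written in the direction of Tap1, with a reverse Y box at the Psmb9 end and the X2 site core nearer Tap1.
Tap1 and Psmb9, chr17:34187331-34187555, plus strand: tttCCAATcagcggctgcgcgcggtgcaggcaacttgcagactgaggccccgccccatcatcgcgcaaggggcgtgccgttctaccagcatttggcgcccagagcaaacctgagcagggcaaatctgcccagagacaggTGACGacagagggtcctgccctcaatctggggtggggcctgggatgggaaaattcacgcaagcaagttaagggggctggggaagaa

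Library totals lay between 42829294 and 49537098 counts. Slc6a6 itself was at 125 to 133 CPM (counts scaled to library size by TMM) in the KO libraries and at 145 to 151 CPM in the WT libraries. Counts per gene cannot show whether the transcript was altered, so this does not check the genotype. Summed over Kdm5d, Uty, Eif2s3y and Ddx3y, Y-linked transcripts reached 10274 to 11236 counts in every KO library against 0 or 1 in WT, and Xist was at 0.305 to 4.41 CPM in KO and 160 to 197 CPM in WT. Genotype and this sex-linked difference cannot be told apart in any result. Of the markers of the leukaemia, Hoxa9 was at 102 ± 5.63 CPM in KO and 134 ± 5.73 CPM in WT (adjusted p = 0.0502), Meis1 at 107 CPM or more and the pan-leukocyte gene Ptprc at 50.1 CPM or more in every library. The progenitor gene Kit was the 1 of 10 such markers that rose, at 65.1 ± 17.8 CPM in KO and 17.9 ± 7.87 CPM in WT (adjusted p = 0.0450). Cd34, another progenitor gene, was at 1.61 ± 0.773 CPM in KO and 8.37 ± 7.44 CPM in WT (adjusted p = 0.114), with every KO library below every WT library. The median log2 fold change of the 10 was −0.49. The myeloid granule genes Mpo and Elane had no count in KO1, and the integrin gene Itgam was at most 1.76 CPM.

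All 10 members had a higher fitted level in the KO libraries than in the WT libraries, by 23.3% (Tap2) to 95.1% (Nlrc5), and none of the 10 passed edgeR's quasi-likelihood test at a Benjamini-Hochberg adjusted p below 0.05. Over all genes 3.56% passed, 1.64% as higher in KO. The median log2 fold change of the members was 0.47, against 0.01 over all genes tested, of which 50.9% were positive. At an unadjusted p below 0.05, 9 of the 10 were higher, against 11.6% of all genes. In 6 of the 10 (B2m, Tap1, Tap2, Psmb8, Psmb9 and Erap1) every KO library lay above every WT library, which was so for 13.6% of all genes. In 0 of the 10 did KO lie wholly below WT, against 14.4% of all genes. DESeq2's Wald test called 5 members higher, namely B2m, Psmb9, Tap1, Psmb8 and Nlrc5, against 6.51% of the 17793 genes it tested. In simulated counts for 15232 genes DESeq2 made 50 false calls and edgeR 8. Of genes changed 1.5-fold, DESeq2 recovered 14.9% and edgeR 5.97%. The changed genes were drawn at random from all genes tested, so these shares need not hold for the members. Limma-voom called 0 members higher, against 1.34% of all genes. B2m and Psmb9 passed edgeR's test with no filter beyond 1 count, where 0.995% of all genes were higher, and with a filter of 1 CPM in 3 libraries, where 2.17% were. Fewer cells of a type and less RNA per cell cannot be told apart in such bulk samples.

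**Figure D1:**
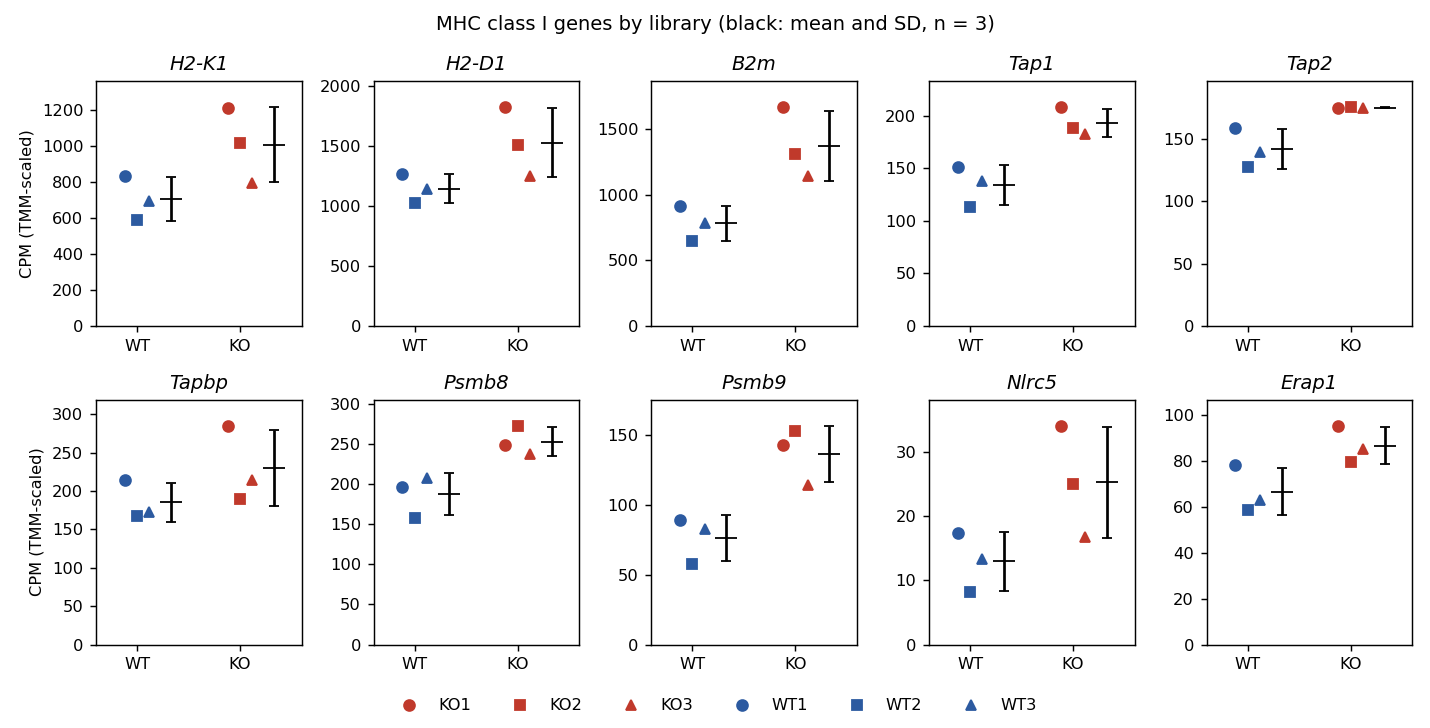
CPM of the 10 MHC class I genes (vertical axes, TMM-scaled, from 0) in each WT (blue) and KO (red) library, with the group mean and SD in black. WT2 was the lowest of the 6 libraries for every gene, and the groups overlapped for H2-K1, H2-D1, Tapbp and Nlrc5.

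The 2 classical heavy chains were among the most abundant members. H2-K1, which encodes the K heavy chain, was at 1206, 1017 and 791 CPM in KO1 to KO3 and at 832, 586 and 695 CPM in WT1 to WT3. H2-D1, which encodes the D heavy chain, was at 1820, 1504 and 1248 CPM in KO and at 1263, 1023 and 1141 CPM in WT. For both genes KO1 was highest, and KO3 lay just below WT1, so the groups overlapped. The log2 fold changes were 0.51 ± 0.18 (SE, n = 3 against 3, adjusted p = 0.162) for H2-K1 and 0.42 ± 0.15 (adjusted p = 0.161) for H2-D1.

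B2m, which encodes beta-2 microglobulin, the light chain needed for every class I molecule to leave the endoplasmic reticulum, separated the groups. It was at 1666, 1312 and 1139 CPM in the KO libraries and at 914, 648 and 785 CPM in the WT libraries. The lowest KO library lay above the highest WT library. The difference was 0.81 ± 0.17 on the log2 scale, with an adjusted p of 0.0546. Together H2-K1, H2-D1 and B2m took 0.464%, 0.394% and 0.306% of all counts in KO1 to KO3, and 0.307%, 0.223% and 0.264% in WT1 to WT3. The exact 95% binomial interval of the KO1 share was 0.462% to 0.466%, and such intervals cover counting error only, since the reads carry no molecular identifiers.

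Among the genes of peptide transport and loading, Tap1 and Tap2 encode the paired subunits of the TAP transporter. Tap1 was at 208, 188 and 183 CPM in KO and at 151, 113 and 138 CPM in WT, a log2 difference of 0.53 ± 0.12 (adjusted p = 0.0628). Tap2 was at 175 CPM in each KO library and at 159, 128 and 139 CPM in the WT libraries (0.30 ± 0.09, adjusted p = 0.126). Neither gene overlapped between the groups. Tapbp, which encodes tapasin, the bridge between TAP and the empty class I molecule, was at 285, 189 and 215 CPM in KO against 215, 168 and 173 CPM in WT. KO1 stood above the other 5 libraries for Tapbp, and the log2 fold change of 0.31 ± 0.17 (adjusted p = 0.344) was 0.12 without KO1. Erap1, the aminopeptidase that trims peptides in the endoplasmic reticulum, was at 95.5, 79.8 and 85.2 CPM in KO and at 78.4, 58.7 and 63.2 CPM in WT, where KO2 and WT1 came close to each other (0.38 ± 0.13, adjusted p = 0.160).

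Psmb8 and Psmb9 encode subunits of the immunoproteasome, the form of the proteasome that favours fragments suited to class I. Psmb8 was at 249, 273 and 238 CPM in KO and at 197, 158 and 208 CPM in WT (0.43 ± 0.12, adjusted p = 0.0954). Psmb9 was at 142, 153 and 114 CPM in KO and at 89.1, 57.9 and 82.3 CPM in WT (0.83 ± 0.18, adjusted p = 0.0593). Both were highest in KO2, and neither overlapped between the groups. Nlrc5, the coactivator of class I genes, was the least abundant member, at 34.1, 25 and 16.8 CPM in KO and at 17.3, 8.22 and 13.4 CPM in WT. Its log2 fold change was the largest of the 10 members and also had the largest error, 0.96 ± 0.34 (adjusted p = 0.165), with KO3 below WT1. Among the 6 fits without 1 library its log2 fold change lay between 0.69 and 1.21.

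**Figure D2:**
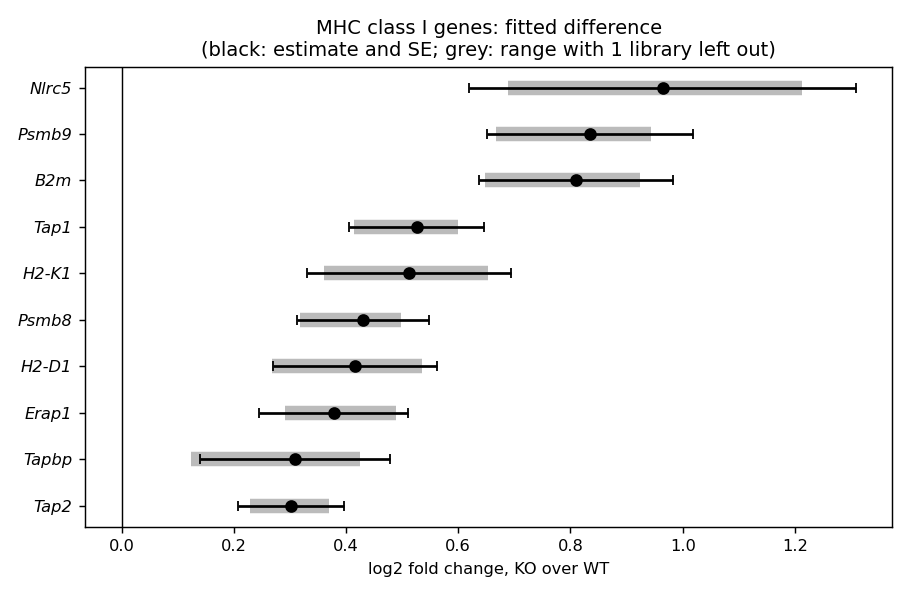
Fitted log2 fold change of each MHC class I gene, KO over WT (horizontal axis), with its SE in black and, in grey, the range over the 6 fits that each left out 1 library. Every estimate and every grey bar lies above 0, from 0.12 for Tapbp without KO1 to 1.21 for Nlrc5.

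The members varied together within the groups as well. WT2 was the lowest of the 6 libraries for 10 of 10 members. WT1 was the highest WT library for 9 of 10 (all but Psmb8). KO1 was the highest of the 6 libraries for 7 members and KO2 for the other 3 (Tap2, Psmb8 and Psmb9), while KO3 was the lowest KO library for 7. Without WT2 the median log2 fold change of the members was 0.37, and without KO1 it was 0.40. Without KO3 it was 0.55, and all 10 stayed positive in each of the 6 fits without 1 library.

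Levels of different genes were compared per kilobase of merged exon (GENCODE M21). B2m was highest, at 1596 ± 312 CPM per kb in KO and 909.9 ± 155 CPM per kb in WT (mean ± SD, n = 3). H2-D1 followed at 725 ± 136 in KO and 543 ± 57.1 CPM per kb in WT, and H2-K1 at 607 ± 126 and 426 ± 74.5 CPM per kb. Group ranges of these 2 heavy chains overlapped, while H2-D1 lay above H2-K1 within each of the 6 libraries. Psmb8 came next (155 ± 11.1 in KO, 115 ± 16.1 CPM per kb in WT), then Psmb9 (101 ± 14.8 and 56.5 ± 12.2), Tapbp (79.3 ± 17.1 and 64.0 ± 8.88), Tap1 (65.4 ± 4.49 and 45.4 ± 6.56) and Tap2 (50.8 ± 0.106 and 41.2 ± 4.55). Psmb9 lay above Tapbp in 3 of 3 KO libraries and in 1 of 3 WT libraries. Tapbp lay above Tap1, Psmb9 above Tap1 and Tap1 above Tap2 in all 6 libraries, although the group ranges of Tapbp and Tap1 overlapped in KO and those of Psmb9 and Tap1 and of Tap1 and Tap2 in WT. Erap1 (15.4 ± 1.41 and 11.8 ± 1.82 CPM per kb) and Nlrc5 (3.12 ± 1.07 and 1.6 ± 0.563 CPM per kb) were lowest.

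Reads of related or overlapping genes could be shared. Of all distinct stretches of 100 bases, the read length, in the protein-coding transcripts of H2-D1, 4.09% also occurred in transcripts of other genes such as H2-Q1 and H2-T23. The share was 0% for H2-K1, B2m and Nlrc5. Exons of Tap1 and Psmb9 overlapped on opposite strands over 7.18% and 15.7% of their lengths, those of Erap1 and Cast over 14.8% of Erap1, and those of Tapbp and Gm19412 over 23.5% of Tapbp. Tap2 and Psmb8 overlapped other gene models over 15.8% and 11.4% of their lengths. The library chemistry does not mark strand, so reads from these overlaps cannot be assigned.

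Ratios of 2 genes within a library do not depend on how libraries are scaled. In each ratio reported here a two-sided exact permutation test of 3 against 3 cannot go below p = 0.1, and 6 ratios were tested. The ratio of the heavy chains to their light chain, (H2-K1 + H2-D1) over B2m in counts, was 1.82, 1.92 and 1.79 in KO and 2.29, 2.48 and 2.34 in WT. The groups did not overlap, with KO lower by a difference of −0.36 on the log2 scale (exact p = 0.1, Benjamini-Hochberg adjusted p = 0.12). H2-K1 over H2-D1 was 0.663, 0.676 and 0.634 in KO and 0.659, 0.573 and 0.609 in WT, which overlapped (exact p = 0.2, adjusted p = 0.2). Tap1 over Tap2 was 1.19, 1.07 and 1.05 in KO and 0.952, 0.885 and 0.993 in WT, without overlap (exact p = 0.1, adjusted p = 0.12).

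The 3 immunoproteasome subunits differed in sign. Psmb8 over its constitutive counterpart Psmb5 was 2.29, 2.53 and 2.08 in KO and 1.79, 1.18 and 1.68 in WT, and Psmb9 over Psmb6 was 0.421, 0.432 and 0.310 in KO and 0.272, 0.148 and 0.223 in WT. The log2 differences were 0.58 and 0.88. Psmb10, the third immunosubunit, over Psmb7 was 1.24, 1.21 and 0.944 in KO and 1.96, 1.70 and 1.69 in WT, a log2 difference of −0.66 in the opposite direction. None of these 3 ratios overlapped between the groups (exact p = 0.1 and adjusted p = 0.12 for each). Psmb10 itself was at 135, 124 and 119 CPM in KO and at 185, 202 and 195 CPM in WT, and fell by 35.0% (log2 fold change −0.62 ± 0.08, adjusted p = 0.0171). The adjusted p of Psmb10 was 0.0696 without KO3 and 0.10 without WT3. Psmb5, Psmb6 and Psmb7 differed by −0.15 ± 0.09, −0.04 ± 0.09 and 0.04 ± 0.12 on the log2 scale (adjusted p = 0.407, 0.848 and 0.901). Psmb6 changed sign without WT2, and Psmb7 without KO3 or without WT1.

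**Figure D3:**
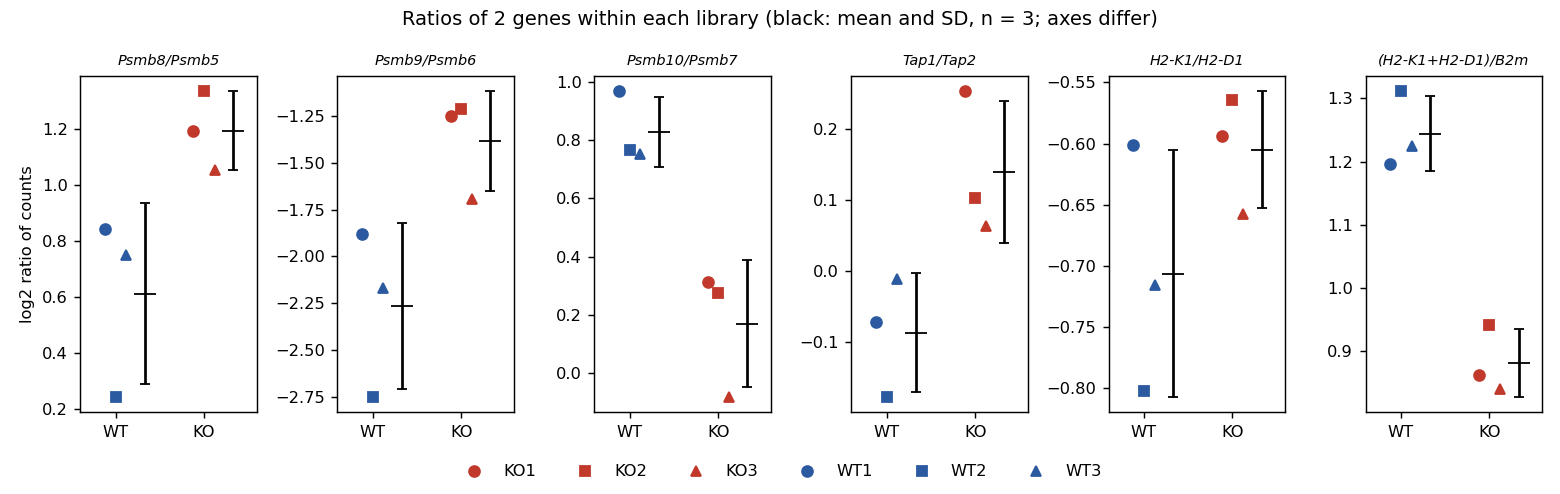
Log2 ratio of the counts of 2 genes within each library (vertical axes, which differ between panels) for WT (blue) and KO (red), with the group mean and SD in black. The ratios of Psmb8, Psmb9 and Tap1 lie higher in KO, those of Psmb10 and of the heavy chains to B2m lie lower, and the H2-K1 to H2-D1 ratio overlaps.

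Other genes of the pathway were taken from lists by role. In the list of peptide supply, 15 proteasome, activator and peptidase genes, 2 fell, 0 rose and the median log2 fold change was 0.00. Beside Psmb10 this was Thop1, a cytosolic peptidase that destroys class I peptides, at 121, 136 and 127 CPM in KO and 166, 202 and 187 CPM in WT (fell by 30.8%, adjusted p = 0.0373). Thop1 stayed below an adjusted p of 0.05 only without WT1 (0.0415) among the fits without 1 library, with a highest value of 0.148 without WT3. Lap3, another peptidase, was at 152 ± 9.29 against 181 ± 11.1 CPM (adjusted p = 0.146).

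Of 8 loading chaperones and their partners 0 passed edgeR's test in either direction, with 1 higher and 1 lower at an unadjusted p below 0.05 and a median of −0.12. DESeq2's Wald test called Canx, which encodes calnexin, a chaperone that holds new heavy chains, at 818 ± 29.8 CPM in KO and 971 ± 2.47 in WT (edgeR adjusted p = 0.0764, DESeq2 adjusted p = 0.0284). Tapbpl, which encodes the tapasin relative TAPBPR, was at 26.6 ± 2.84 against 19.1 ± 4.17 CPM (adjusted p = 0.212), and Ganab, a glucosidase that prepares glycoproteins for calnexin, at 253 ± 8.5 against 286 ± 18.6 CPM (adjusted p = 0.232).

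Of the 4 further pathway genes that rose, 3 were non-classical class Ib genes. Of the 17 class Ib and class I-like genes listed, 13 passed the low-count filter, 3 of these rose and 0 fell, 13 were positive, and their median log2 fold change was 1.06. H2-Q7, which encodes the Qa-2 antigen, was at 39.6, 56.2 and 29.3 CPM in KO and at 9.31, 6.55 and 11.4 CPM in WT, 4.6-fold higher (2.20 ± 0.30, adjusted p = 0.0203). H2-Q6, its close relative, was at 15.7, 22.4 and 15.3 CPM against 7.19, 4.19 and 7.05 CPM (1.53 ± 0.28, adjusted p = 0.0373). H2-T23, which encodes Qa-1, the class Ib molecule read by the NK receptor NKG2A, was at 235, 208 and 167 CPM in KO and at 119, 89.7 and 105 CPM in WT, 1.94-fold higher (0.96 ± 0.15, adjusted p = 0.0279). For all 3 the lowest KO library lay above the highest WT library.

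Of the 100-base stretches in the protein-coding transcripts of H2-Q7, 17.2% occurred in other genes, with 13% for H2-Q6 and 7.28% for H2-T23, so the split of reads between H2-Q7 and H2-Q6 is uncertain. The calls depended on single libraries. Without KO2 the adjusted p was 0.0309 for H2-Q7, 0.0617 for H2-Q6 and 0.0493 for H2-T23. H2-Q6 did not pass in any of the 6 fits without 1 library (0.0617 to 0.119). H2-Q7 missed the threshold without KO1 (0.0637), WT1 (0.0546) or WT3 (0.0686), and H2-T23 without KO1 (0.0860), WT2 (0.0712) or WT3 (0.119).

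**Figure D4:**
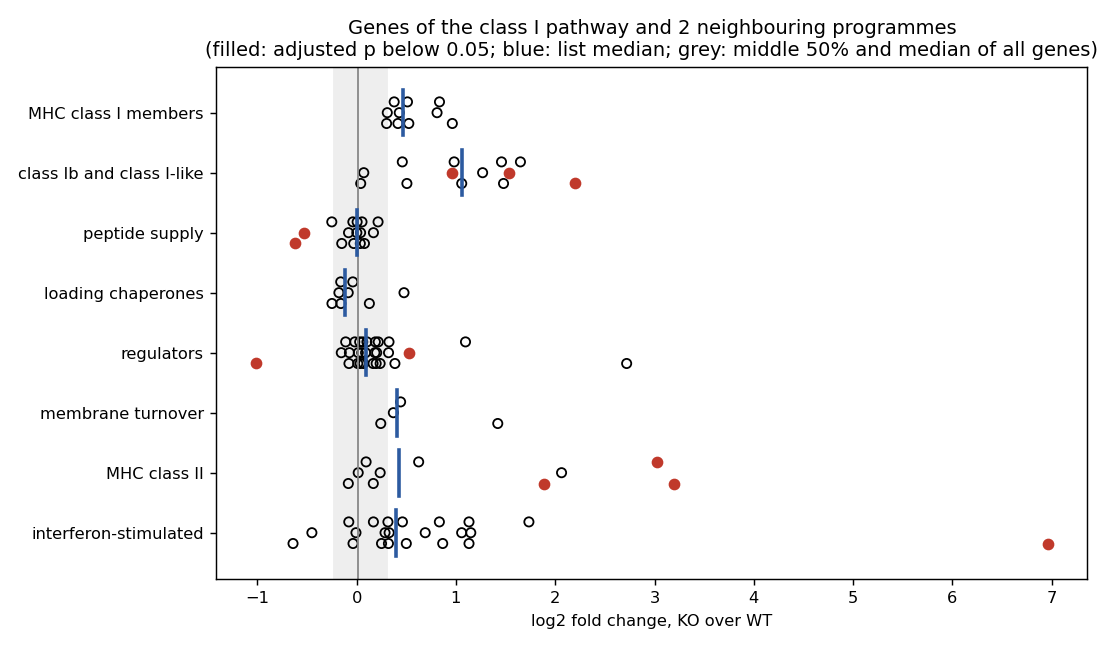
Log2 fold change, KO over WT (horizontal axis), of each tested gene in the class I members, in 5 further lists of the pathway and in the MHC class II and interferon-stimulated lists, with genes at an adjusted p below 0.05 filled and list medians in blue. The grey band spans the quartiles of all 15232 genes, from −0.23 to 0.31, and 0 of the 10 members are filled.

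Of 28 regulators of class I transcription and interferon signalling, 1 rose and 1 fell, with a median of 0.10. Jak2, a kinase of the interferon-gamma receptor, was at 118, 105 and 119.7 CPM in KO and at 83.9, 81.4 and 72.7 CPM in WT (0.53 ± 0.09, adjusted p = 0.0364). Socs1, an inhibitor of JAK signalling, was at 33.4, 29.2 and 24 CPM in KO and at 69.8, 47.3 and 57.8 CPM in WT (−1.01 ± 0.18, adjusted p = 0.0370). Jak2 stayed past the threshold only without KO2 (0.0387) and Socs1 only without WT2 (0.0477) among the fits without 1 library.

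Irf1, an interferon-induced activator of class I genes and of Nlrc5, was at 34.0, 32.3 and 27.3 CPM in KO and at 22, 8.62 and 13.2 CPM in WT. The groups did not overlap, and the log2 fold change was 1.10 ± 0.32 (edgeR adjusted p = 0.113, DESeq2 adjusted p = 0.0071). In edgeR's fits without 1 library the adjusted p of Irf1 lay between 0.0459 and 0.291. Irf8, a transcription factor of monocytes, dendritic cells and B cells, was at 5.36, 3.14 and 4.87 CPM against 1.25, 0.590 and 0.177 CPM (edgeR adjusted p = 0.0746, DESeq2 adjusted p = 0.000371). Rfx5, a subunit of the RFX complex at the X box, was at 20.8 ± 2.33 against 15.9 ± 4.07 CPM (adjusted p = 0.347).

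Interferon-stimulated genes were highest in KO1 in 19 of 23 cases, the others being Gbp5 and Cxcl9 (KO2) and Gbp2 and Iigp1 (WT1). The 23 listed genes summed to 2522, 564 and 893 CPM in KO1 to KO3, and to 767, 1115 and 773 CPM in WT1 to WT3. KO2 lay below all 3 WT libraries in this sum, which a few abundant genes weigh on. Rsad2 and Isg15 were at 764 and 495 CPM in KO1, 107 and 67.0 CPM in KO2, and 340 and 171 CPM in WT2. Of the 22 tested 1 rose and 0 fell (median 0.39). This was Gbp4, a guanylate-binding protein, at 6.53, 1.33 and 1.09 CPM in KO and with 0, 0 and 3 counts in WT (adjusted p = 0.0419). It passed only without KO2 (0.0458) among the fits without 1 library, and its adjusted p was 0.0774 with limma-voom. Igtp, an interferon-gamma-induced GTPase, was at 72.5 ± 35.3 against 40.7 ± 2.54 CPM (adjusted p = 0.185), and Gbp5, another guanylate-binding protein, at 6.39 ± 2.25 against 3.07 ± 1.90 CPM (adjusted p = 0.283). The part of interferon-stimulated expression in the class I levels was not tested.

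MHC class II genes present peptides to CD4 T cells. The listed ones summed to 96.4 to 206 CPM in the 6 libraries, against 2949 to 5881 CPM for the class I members. These sums are not scaled to gene length, and Cd74 (44.4 CPM) lay above Nlrc5 (25.3 CPM) in the KO means. Of 10 class II genes tested 3 rose and 0 fell, and the median log2 fold change was 0.43, against 0.47 for the class I members. DESeq2's Wald test called 5 class II genes higher, against 6.51% of all genes it tested. The class II chaperone Cd74 was at 44.7, 37.6 and 50.9 CPM in KO and at 6.95, 4.38 and 5.04 CPM in WT (adjusted p = 0.00231). The class II chains H2-Aa and H2-Eb1 were at 9.89 ± 0.798 and 9.79 ± 2.03 CPM in KO and at 1.08 ± 0.529 and 2.65 ± 0.776 CPM in WT (adjusted p = 0.0200 and 0.0297). Cd74 passed in all 6 fits without 1 library. H2-Aa missed the threshold without KO1 (0.0631), KO3 (0.0610) or WT3 (0.0935), and H2-Eb1 passed only without WT1 (0.0471).

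Some markers of other blood cells differed by label too, while the list sums overlapped between the groups except for B and plasma cells. Of 11 T and NK cell markers 5 of 10 tested rose (Cd3d, Cd3e, Cd4, Trbc1 and Trbc2) and 0 fell. Leaving out Nkg7, which was at 690.4 CPM or more in every library, they summed to 18.9 to 39.0 CPM in KO and 14.5 to 21.2 CPM in WT, with Cd4 and Ncr1 at 0 in WT. Lck, at 10.7 to 18.4 CPM in every library, made up much of that sum. The 7 T cell receptor and coreceptor genes of the list, set apart after their values were seen, summed to 20.1, 7.36 and 17.8 CPM in KO1 to KO3 and to 0.872, 0.590 and 0.508 CPM in WT1 to WT3. They are also the 7 genes of the list in which KO lay wholly above WT, so their sums had to separate. At an unadjusted p below 0.05, 7 genes of the T and NK list were higher and 1 was lower, the NK cell receptor gene Klrb1c. Of 8 B and plasma cell markers 2 of 7 tested rose, Cd79b among them, and 0 fell (6 higher and 0 lower at an unadjusted p below 0.05). Their sums were 63.2 to 166 CPM in KO and 5.47 to 43.3 CPM in WT, with Pax5 at 0 in WT. Of 9 macrophage and monocyte markers 2 rose (Mrc1 and Csf1r) and 0 fell, while 5 were higher and 1 (Ccr2) lower at an unadjusted p below 0.05. The sums of these 9 were 40.6 to 114 CPM in KO and 23.8 to 71.3 CPM in WT, with none at 0 over a group.

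Of 7 dendritic cell markers 0 of 4 tested passed edgeR's test (1 higher and 1 lower at an unadjusted p below 0.05), with sums of 9.23 to 21.6 CPM in KO and 9.95 to 16.2 CPM in WT and Siglech and Cd209a at 0 in WT. Of 7 neutrophil markers 0 of 6 tested passed (3 lower at an unadjusted p below 0.05), with sums of 13.6 to 197 CPM in KO and 104 to 740 CPM in WT. Of 8 erythroid markers 0 passed (6 higher at an unadjusted p below 0.05), with sums of 7347 to 24096 CPM in KO and 2416 to 10183 CPM in WT. Among the KO libraries, KO3 had the highest erythroid sum (24096 CPM) and the lowest level of 7 members. KO1, with a sum of 21132 CPM, had the highest level of 7 members. The part of these cells in the class I levels was not tested.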

How the data were processed

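The deposited values are counts of reads per gene, with 1 column per library, per the file headers. RNA was amplified from the poly(A) tail and sequenced as single-end reads, per the labels' protocols. The submitters' processing notes name featureCounts, Subread 2.0.1, STAR 2.7.9a and fastp 0.23.1. The sources used here do not give parameters, genome build or annotation.

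Counts were filtered with filterByExpr (minimum count 10, minimum total 15), scaled by TMM and tested in edgeR 4.0.16 under R 4.3.3 with the robust quasi-likelihood F test, no covariate, Benjamini-Hochberg adjustment over 15232 genes and a threshold of 0.05. The SE is the log2 fold change divided by the square root of F. Ratios used a pseudocount of 0.5. A count of 3 amounts to 0.0594 to 0.0727 CPM, depending on the library. Alternatives used DESeq2 1.42.0, limma 3.58.1, other scalings and filters, the replicate block and leave-one-out fits.

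The code was tested on simulated counts with known changes and dispersions estimated from these libraries. Of 67 genes changed 1.5-fold, edgeR recovered 5.97%, limma-voom 4.48% and DESeq2 14.9%. Of 67 changed 2-fold, they recovered 41.8%, 34.3% and 58.2%. False calls numbered 8, 6 and 50. Members, lists and tests were chosen with earlier results of these data known. From each further list other than cell markers, genes past the threshold were named, with the smallest p-values at 1 CPM or more filling up to 3, plus Psmb5, Psmb6, Psmb7, Psmb10, Irf1 and Rfx5. Some items are not reported here. Cell markers are given by their sums, with those past the threshold named, and Slc6a6 as a check.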

Additional observations from a re-analysis of the deposited data

How the results depend on the processing

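The log2 fold change of each of the 10 MHC class I members stayed positive under all 13 alternatives, and the 6 within-library ratios kept their direction under theirs. The number of members called higher was 0 in the fits without 1 library, with other scalings, with limma-voom and with the replicate block, 5 with DESeq2's Wald test, and 2 (B2m and Psmb9) both with no filter beyond 1 count and with a filter of 1 CPM in 3 libraries, which change the genes tested (273 of 27431 and 264 of 12168 genes higher). Over all genes edgeR called 250 higher and 293 lower, DESeq2 1158 and 932 of 17793. Among fits without 1 library these counts lay between 13 and 371 and between 29 and 247, the lowest without WT3. In the 5 further lists of the pathway 4 genes were higher and 3 lower. DESeq2 called 7 higher, and fits without 1 library gave 0 to 4 higher and 0 to 2 lower, with 0 and 0 without WT3. The cause was not tested.

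Same-numbered libraries did not deviate together (correlations of 0.05, −0.24 and −0.09 over genes). Pairs with different numbers lay between −0.21 and 0.29. Deviations from means of 3 libraries are tied to each other, so this cannot show whether the numbers mark pairs. With the replicate block 8 genes were higher and 20 lower over all genes, and 0 and 0 in the further lists. Of the 36 members and other named genes of the lists refitted without 1 library, 2 changed sign: the log2 fold change of Psmb7 lay between −0.080 (without WT1; −0.063 without KO3) and 0.10, and that of Psmb6 between −0.13 and 0.016 (without WT2). With 3 libraries a group, a member short of the threshold is not shown to be unchanged.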

Other observations

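The tested genes of a list of membrane turnover were positive as well, with 0 of 4 past edgeR's test and 4 higher at an unadjusted p below 0.05. Marchf4 and Marchf9, also listed, had too few counts to be tested. Whether any of the listed genes acted on class I molecules here was not tested. Marchf8, a membrane ubiquitin ligase, was at 202, 79.1 and 239.6 CPM in KO and at 51.2, 82.8 and 60.5 CPM in WT (adjusted p = 0.0979), with KO2 inside the WT range. Without KO2 its adjusted p was 0.0257. Wwp2, an E3 ubiquitin ligase, averaged 188 ± 9.20 CPM in KO against 159 ± 9.64 in WT (adjusted p = 0.140), and Tmem127, a membrane protein that works with ubiquitin ligases of this kind, at 74.6 ± 13.3 against 57.7 ± 6.12 CPM (adjusted p = 0.206).

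The genes outside the lists whose level over the 6 libraries was most like the mean log2 CPM of the 10 members were Cemip2, a cell-surface hyaluronidase (Pearson's r = 0.995), Cep85l, a centrosomal protein (0.994), and Selenop, a secreted selenium carrier (0.993). Cemip2 was at 37.9, 27.4 and 23.9 CPM in KO1 to KO3 and at 20.1, 12.3 and 17.2 CPM in WT1 to WT3. These are the closest of the genes outside the lists at a mean of 10 CPM or more. Symbols of provisional genes, pseudogenes, clones and antigen receptor genes were left out. The 6 libraries share the split into groups, so the correlations are descriptions.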
